A study of Mus musculus with 8 samples.

Results

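Endothelial cells line the capillaries of the brain, and their tight junctions and transporters form the blood-brain barrier. Mural cells, the pericytes of capillaries and the smooth muscle cells of arterioles, surround them and set vessel tone. In the hippocampus both are sparse beside neurons and glia, so their transcripts make up a small part of the RNA of the tissue. The genes described here are 37 genes of these cells, 28 mainly of endothelial cells and 9 of mural cells, out of 18193 genes that a probe set of the array names alone. They were taken by symbol, and every probe set that names 1 of them and no other gene was used.

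Hippocampal RNA was measured on 4 arrays of the RA group and 4 arrays of the control group. All mice were male 3 × Tg-AD mice, which carry mutant amyloid precursor protein, tau and presenilin 1 and develop amyloid and tau pathology with age. The RA group ate an AIN-93G diet with 0.5% rosmarinic acid, a polyphenol of Lamiaceae herbs, for 8 months, and the control group ate the same diet without it. Tissue was taken at 10 months of age, and no mice without the transgenes are among these samples. The Methods name 4 mice per group but also speak of pooled RNA, so p-values measure the spread between arrays, which may be partly technical.

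Levels are on the log2 scale, summarised for each probe set with FARMS, a factor model that looks for signal common to its probes. Where it finds none, it returns an almost constant value, and such a probe set says nothing about a difference. A probe set was taken as measured where its SD over the 8 arrays was above 0.01, which held for 8.34% of 45037 probe sets. Array medians lay at 5.833 to 5.835 in the RA group and at 5.829 to 5.831 in the control group. Of the measured probe sets, 73.1% were higher on average in RA arrays than in control arrays. Choroid plexus RNA differed widely between arrays of both groups: the plexus marker Ttr was at 12.05, 7.67, 13.12 and 13.26 in RA 1 to RA 4, and at 8.54, 8.57, 13.39 and 8.90 in control 1 to control 4.

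Of the 37 vascular genes, 36 had a probe set of their own, 68 probe sets in all. Ly6c1 shares its only probe set with Ly6c2 and was left out. The measured probe sets were 18, from 13 genes, and 23 genes had only nearly constant values. The unmeasured genes include most defining markers of the endothelium: the adhesion molecules Pecam1, Esam, Cdh5, Icam2 and Emcn, and the receptors Tek, Kdr, Tie1 and Eng. They also include the transporters Slco1a4, Slc2a1, Abcb1a, Slc7a5 and Mfsd2a, the secreted or membrane proteins Egfl7, Ctla2a and Ltbp4, and the transcription factors Sox17 and Foxq1. Among mural genes, Pdgfrb, Kcnj8, Abcc9 and Anpep, which mark pericytes, were unmeasured. The highest SD among these 50 nearly constant probe sets was 0.00517, and their means ran from 5.10 to 8.79. A label of endothelium and pericytes therefore rests here on Cldn5, Flt1, Ptprb, Vwf and Slco1c1 for the endothelium, and on Vtn, Rgs5, Acta2, Tagln and Myl9 for mural cells. Vcam1, Itm2a and Tgm2 are made by other cells of the brain as well.

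The vascular genes were mostly high on a single array, RA 2. It held the highest value in 15 of the 18 measured probe sets, while it held the highest value in 27.2% of all measured probe sets. The remaining 3 were the 2 probe sets of Vcam1, highest in RA 4, and that of Slco1c1, highest in control 3. The lowest value was in control 3 in 8 of the 18, in control 2 in 5, and in control 3 for 33.8% of all measured probe sets. The mean was higher in the RA group for all 18, and their median log2 fold change (RA minus control) was 0.28, against 0.069 over all measured probe sets. Without RA 2 the median fell to 0.13, against 0.071 over all measured probe sets, and 16 of 18 were higher.

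**Figure D1:**
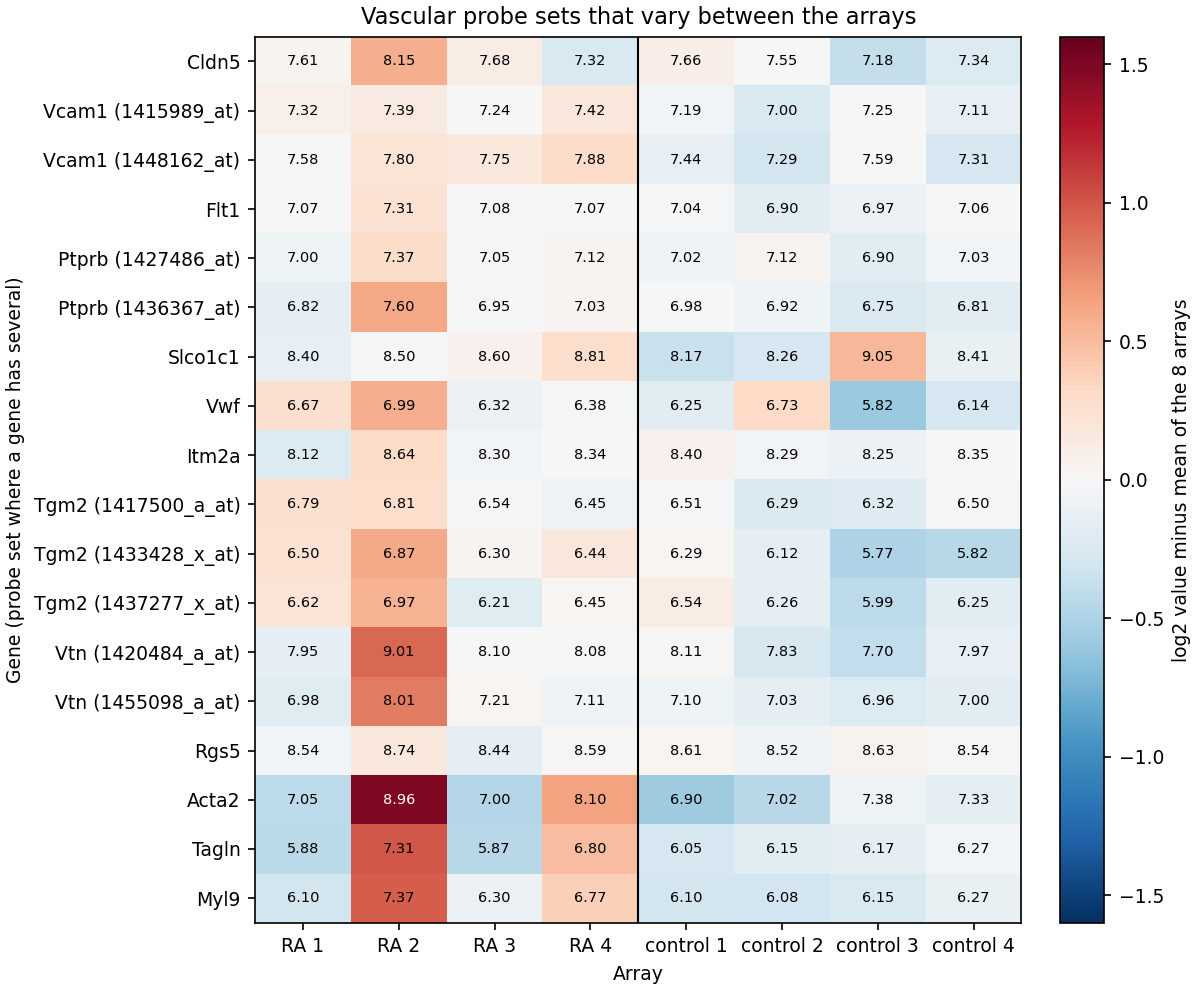
Log2 value of each measured vascular probe set (rows) on each array (columns, RA arrays left of the line and control arrays right of it), coloured by the difference from the mean of the 8 arrays. RA 2 is the highest array in 15 of the 18 rows, and RA 4 is next in the rows of Acta2, Tagln and Myl9.

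Smooth muscle genes had the widest spread. Acta2, smooth muscle actin, had log2 values of 7.051, 8.955, 6.996 and 8.105 in RA 1 to RA 4, and of 6.897, 7.023, 7.380 and 7.329 in control 1 to control 4. Tagln, the actin-binding protein transgelin, had 5.88, 7.31, 5.87 and 6.80 in RA 1 to RA 4, and 6.05, 6.15, 6.17 and 6.27 in control 1 to control 4. Myl9, a regulatory light chain of smooth muscle myosin, had 6.10, 7.37, 6.30 and 6.77 in RA 1 to RA 4, and 6.10, 6.08, 6.15 and 6.27 in control 1 to control 4. In each of the 3 genes RA 2 and RA 4 were the highest arrays and stood above every control array. RA 1 and RA 3 lay within the control range for Acta2 and below it for Tagln, and for Myl9 RA 1 lay within it and RA 3 just above it. In a bulk sample, more smooth muscle cells and more RNA per cell cannot be told apart.

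The log2 fold change was 0.62 for Acta2 (standard error 0.463), 0.49 for Myl9 (standard error 0.273) and 0.31 for Tagln (standard error 0.344). Each rests on RA 2 and RA 4. Without both of them, a choice made once the values were known, it was -0.13 for Acta2, 0.052 for Myl9 and -0.28 for Tagln. The only Acta2 probe set that was measured carries the suffix _s_at, which Affymetrix gives to probes that can match more than 1 transcript.

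The sequences upstream of Acta2 and Myl9 are shown because these genes moved together over the arrays, and because both are known targets of serum response factor, which binds the CArG box. Tagln moved with them, but no upstream sequence was available for it. Of the 13 measured genes, 8 had one. Each run holds the 250 bases before a transcription start of the gene from RefSeq (build GRCm38.p6), 5′ to 3′ on the strand of the gene, at chr19:34255374-34255623 (minus strand) for Acta2 and chr2:156775214-156775463 (plus strand) for Myl9. Capitals mark a CArG box, or a CArG box with 1 of its inner letters off, on either strand.
Acta2: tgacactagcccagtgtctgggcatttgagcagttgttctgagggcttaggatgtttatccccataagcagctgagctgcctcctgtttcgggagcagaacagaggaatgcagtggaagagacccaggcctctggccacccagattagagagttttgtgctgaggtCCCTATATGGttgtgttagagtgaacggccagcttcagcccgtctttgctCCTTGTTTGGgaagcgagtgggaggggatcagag
Myl9: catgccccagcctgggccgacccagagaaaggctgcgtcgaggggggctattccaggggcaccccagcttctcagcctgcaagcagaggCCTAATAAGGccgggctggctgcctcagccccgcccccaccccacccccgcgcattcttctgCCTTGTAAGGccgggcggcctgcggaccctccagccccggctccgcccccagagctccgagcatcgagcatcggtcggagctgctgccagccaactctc
The Myl9 window holds 1 full CArG box, CCTAATAAGG, and 1 with a letter off, and the Acta2 window holds 2 with a letter off, CCCTATATGG and CCTTGTTTGG. Of 32851 such windows of mouse genes, 1.47% hold a full CArG box and 7.24% hold one with a letter off. Another motif, CATTCC on either strand, was also searched. It was found upstream of Slco1c1, Vtn and Acta2, and 12.6% of all windows hold it. These matches describe the letters and are not evidence of binding in this tissue.

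Of the pericyte genes only Vtn and Rgs5 were measured. Vtn encodes vitronectin, which pericytes secrete into the vessel wall. Its brighter probe set had log2 values of 7.95, 9.01, 8.10 and 8.08 in RA 1 to RA 4, and of 8.11, 7.83, 7.70 and 7.97 in control 1 to control 4. RA 2 stood far above every other array, and RA 1, RA 3 and RA 4 lay within the range of the control arrays. The other measured probe set showed the same order for RA 2, at 8.01 against 6.96 to 7.21 on all other arrays. The log2 fold changes were 0.38 (standard error 0.248) and 0.31 (standard error 0.225), and without RA 2 they were 0.14 and 0.078.

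Rgs5, a regulator of G protein signaling that marks pericytes, differed little. Its log2 values were 8.54, 8.74, 8.44 and 8.59 in RA 1 to RA 4, and 8.61, 8.52, 8.63 and 8.54 in control 1 to control 4. RA 2 was again the highest array and RA 3 the lowest, and the group means differed by 0.00097 (standard error 0.0660).

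Cldn5, the main claudin of endothelial tight junctions, had log2 values of 7.61, 8.15, 7.68 and 7.32 in RA 1 to RA 4, and of 7.66, 7.55, 7.18 and 7.34 in control 1 to control 4. RA 4, which was second highest in the smooth muscle genes, was here the lowest of the RA arrays and lay below control 1, control 2 and control 4. The mean difference was 0.25 on the log2 scale (standard error 0.193), and 0.10 without RA 2.

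Vwf encodes von Willebrand factor, the clotting protein stored by endothelial cells. Its log2 values were 6.67, 6.99, 6.32 and 6.38 in RA 1 to RA 4, and 6.25, 6.73, 5.82 and 6.14 in control 1 to control 4. Control 2 lay above all RA arrays but RA 2, so the groups overlapped. The RA mean was 0.36 higher on the log2 scale (standard error 0.233), and 0.22 higher without RA 2.

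The receptors were measured in Flt1 and Ptprb. Flt1, a receptor of vascular endothelial growth factor, had log2 values of 7.07, 7.31, 7.08 and 7.07 in RA 1 to RA 4, and of 7.04, 6.90, 6.97 and 7.06 in control 1 to control 4. All RA arrays lay above all control arrays, but RA 1 and RA 4, at 7.068, barely exceeded control 4, at 7.064. Its log2 fold change was 0.14 (standard error 0.0675), and 0.078 without RA 2. Only 1 of the 4 probe sets of Flt1 was measured. Ptprb, the endothelial phosphatase that acts on the receptor encoded by Tek, had, in the probe set with the larger change, log2 values of 6.82, 7.60, 6.95 and 7.03 in RA 1 to RA 4, and 6.98, 6.92, 6.75 and 6.81 in control 1 to control 4. Only RA 2 stood clear of the rest. The RA mean was higher by 0.24 (standard error 0.172) there and 0.12 (standard error 0.0892) in the other measured probe set.

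Slco1c1 encodes a thyroxine transporter of brain endothelium that is also found in choroid plexus. It was the only barrier transporter measured and had another array order. Its log2 values were 8.40, 8.50, 8.60 and 8.81 in RA 1 to RA 4, and 8.17, 8.26, 9.05 and 8.41 in control 1 to control 4. The 3 arrays with the highest Slco1c1, control 3, RA 4 and RA 3, were also those with the highest Ttr. RA 1 did not follow this order. Its Ttr came next, at 12.05, but its Slco1c1 lay below that of RA 2, where Ttr was lowest at 7.67, and of control 4. The part of choroid plexus RNA in the level of Slco1c1 was not tested. The group means differed by 0.10 (standard error 0.209).

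Vcam1 encodes an adhesion molecule that endothelial cells present to leukocytes and that neural stem cells and astrocytes also make. Its brighter probe set had log2 values of 7.58, 7.80, 7.75 and 7.88 in RA 1 to RA 4, and of 7.44, 7.29, 7.59 and 7.31 in control 1 to control 4. RA 1 lay just below control 3, and otherwise the groups were apart. Its log2 fold change was 0.34 (standard error 0.0914), and leaving out any 1 array gave 0.30 to 0.40. The dimmer probe set gave 0.20 (standard error 0.0639), with RA 3 just below control 3. The rank product, the test of the Methods, called these probe sets higher with all arrays, but in only 4 and 3 of the 8 fits that left out 1 array.

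Tgm2 encodes transglutaminase 2, which cross-links proteins and is made by endothelial cells and astrocytes. The probe set with the largest change, an _x_at set, had log2 values of 6.50, 6.87, 6.30 and 6.44 in RA 1 to RA 4, and of 6.29, 6.12, 5.77 and 5.82 in control 1 to control 4. The lowest RA array, RA 3 at 6.302, lay just above the highest control array, control 1 at 6.288. The log2 fold change was 0.53 (standard error 0.166), or 1.44 times the control level, and leaving out any 1 array gave 0.42 to 0.63. The other measured probe sets, an _a_at and a second _x_at set, gave 0.24 (standard error 0.101) and 0.31 (standard error 0.187), with overlapping groups. The suffix _x_at marks probes that can also match other transcripts, and 3 further probe sets of Tgm2 were nearly constant.

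Itm2a, a membrane protein of endothelial cells, had log2 values of 8.12, 8.64, 8.30 and 8.34 in RA 1 to RA 4, and of 8.40, 8.29, 8.25 and 8.35 in control 1 to control 4. RA 2 was the highest array and RA 1 the lowest. The difference of the means was 0.031 (standard error 0.108), and -0.066 without RA 2.

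**Figure D2:**
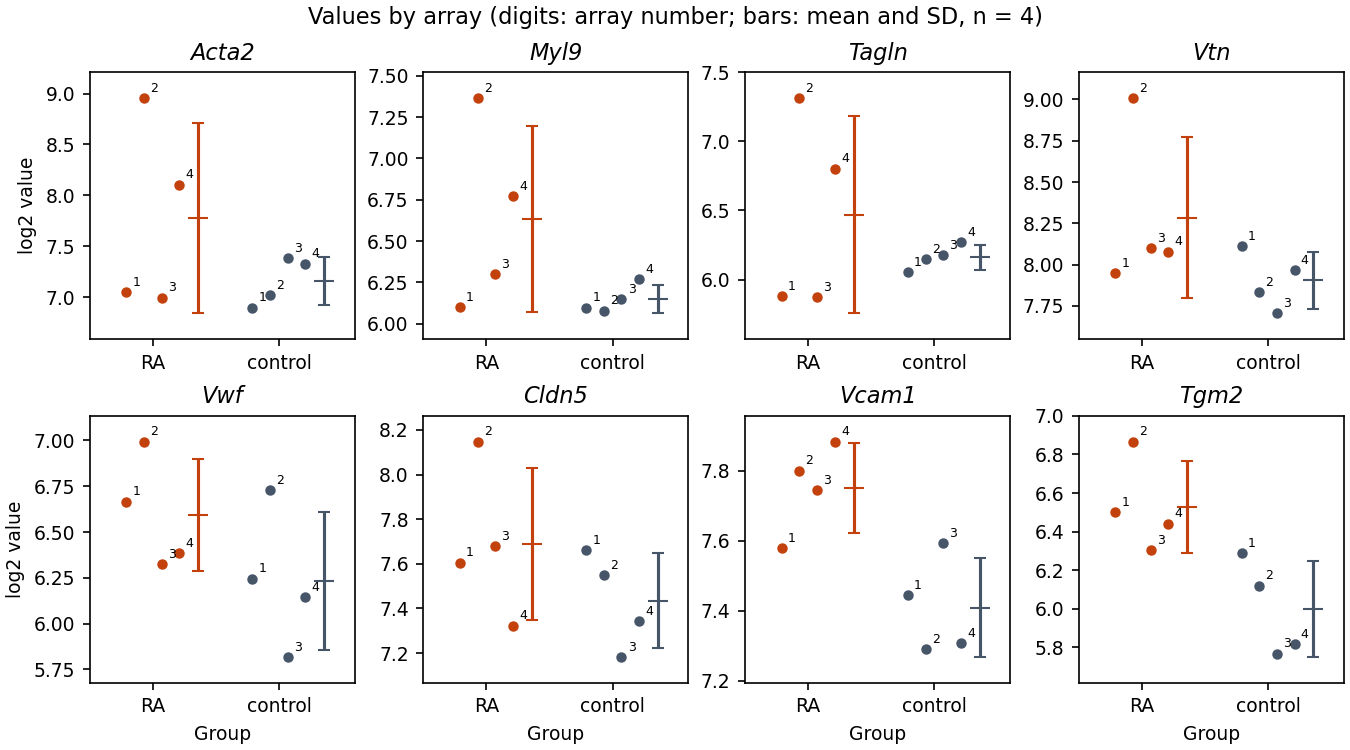
Log2 values of 8 genes in the RA group (left in each panel) and the control group (right), with the mean and SD of 4 arrays beside the points and the array number at each point. RA 2 is the highest array in all panels but that of Vcam1, RA 4 is the second highest in Acta2, Myl9 and Tagln, and the RA values of Vcam1 and Tgm2 lie closer together.

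Calls were made over all 45037 probe sets by the rank product, which the Methods use. It ranks probe sets within each of the 16 RA-control differences and takes a probe set as called where the estimated proportion of false positives is under 0.05. Of the 68 vascular probe sets, 11 were called higher in the RA group and 0 lower. Over all probe sets, 0.888% were called higher and 0.577% lower. Every call lay among the measured probe sets, where 11 of 18 vascular ones were called higher, against 10.6% of all measured probe sets. The vascular genes were chosen with earlier results of these data known, so this contrast is only a description. The measured vascular probe sets also spread more, with a median SD of 0.29 over the arrays against 0.19 for all measured probe sets. The called probe sets belong to 7 genes, namely Acta2, Myl9, Vtn, Vwf, Flt1, Vcam1 and Tgm2. The measured genes Cldn5, Ptprb, Slco1c1, Itm2a, Rgs5 and Tagln were not called.

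The rank product does not weigh a difference by the spread of its probe set, and limma, which does, called none of the vascular probe sets, with a lowest Benjamini-Hochberg adjusted p of 0.326 for a Slc2a1 and a Tgm2 probe set, both with nearly constant values. The lowest among measured ones was 0.358, for Vcam1. limma called 0 of all probe sets, with 0.252 as the lowest adjusted p and 4553 at an unadjusted p under 0.05, of which 363 were measured. Of the 18 measured vascular probe sets, 3 had an unadjusted p under 0.05, against 9.66% of all measured probe sets, namely both of Vcam1 and 1 of Tgm2. When only the 3758 measured probe sets entered the rank product, no vascular probe set was called. Without RA 2, 1 vascular probe set was called higher, that of Tgm2, against 1.09% of all measured probe sets, and without RA 4 also 1, against 0.373%. Groups did not overlap in 2 of the 18, Flt1 and Tgm2, both with the RA arrays above. In all measured probe sets the RA arrays lay above in 2.71% and below in 2.87%.

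**Figure D3:**
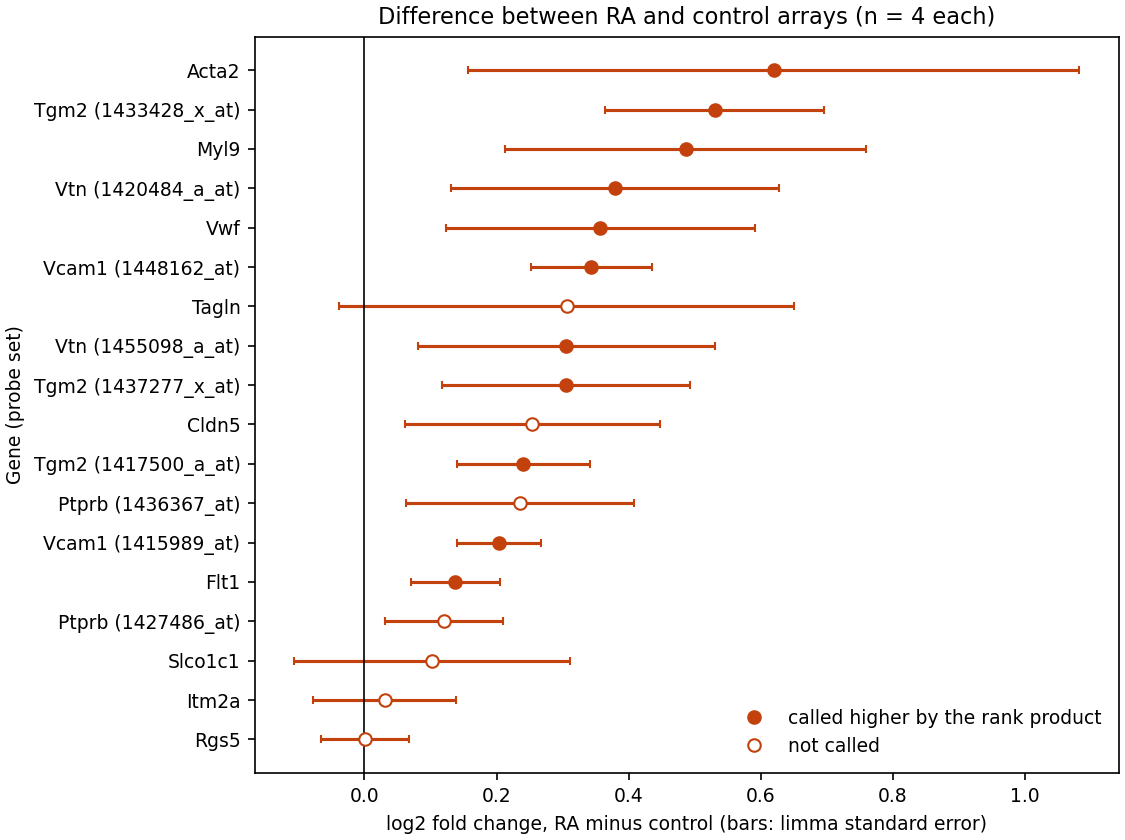
Log2 fold change (RA minus control, 4 arrays in each group) of the 18 measured vascular probe sets, with bars for limma's standard error and filled points for those called higher by the rank product. Values run from 0.00097 for Rgs5 to 0.62 for Acta2, and the bars of Acta2 and Tagln are the widest.

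Co-variation was described with 1 probe set for each of the 13 measured genes, the one with the highest mean. Over the 8 arrays the median Pearson r was 0.78 among the 10 pairs of mural genes, 0.49 among the 28 pairs of endothelial genes and 0.55 among the 40 pairs of an endothelial and a mural gene. Over all pairs of 2496 measured genes it was 0.052. Most of this was shared height in RA 2. Without RA 2 the medians fell to 0.40, 0.029 and 0.22, against 0.060 over all genes. With the group means removed they were 0.83, 0.32 and 0.46, against 0.015 over all genes. The arrays share dissection and scaling, and the correlations are given as a description.

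Acta2, Tagln and Myl9 stayed together on the arrays other than RA 2. Their pairs had r of 0.94 to 0.98 over 8 arrays and of 0.82 to 0.93 without RA 2. Without RA 4 as well, r was 0.65 for Acta2 with Tagln, 0.31 for Acta2 with Myl9 and -0.0084 for Tagln with Myl9. Their shared pattern lay mostly in RA 2 and RA 4. Once RA 2 was left out, Cldn5 had r of -0.70 with Acta2, -0.63 with Tagln and -0.36 with Myl9 over 7 arrays. Over 8 arrays these r were 0.44, 0.42 and 0.58. Flt1 and Vtn kept an r of 0.73 without RA 2, as did Flt1 and Tgm2. Slco1c1 had r below 0 with Cldn5 (-0.48) and Vwf (-0.49) over 8 arrays. Probe sets of the same gene followed each other closely, with r of 0.76 to 0.97 over 8 arrays and of 0.61 to 0.89 without RA 2.

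**Figure D4:**
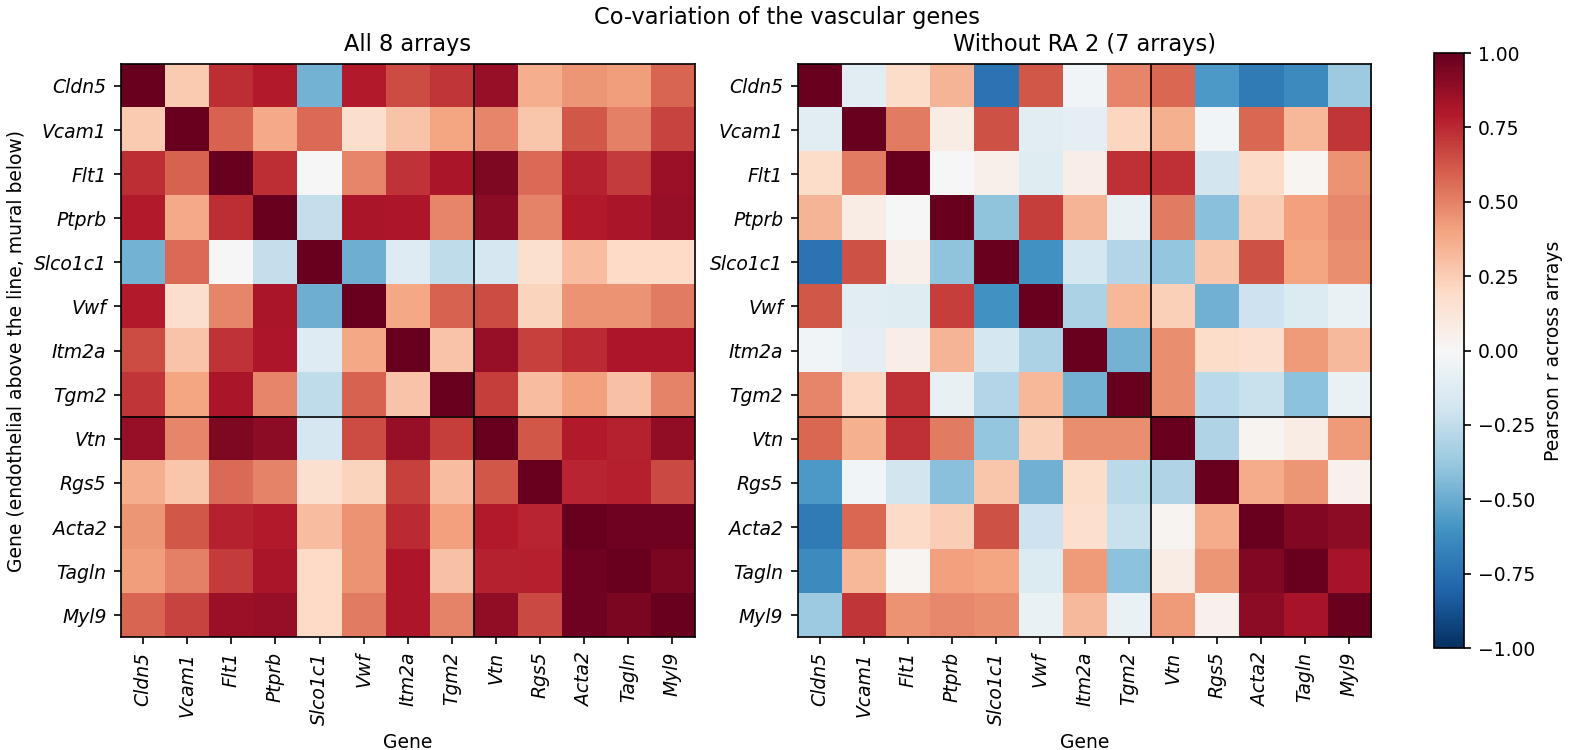
Pearson r across arrays between the 13 measured vascular genes, over all 8 arrays (left) and without RA 2 (right), with endothelial genes above and left of the line and mural genes below and right of it. Most pairs are positive on the left, where the median is 0.78 among mural and 0.49 among endothelial genes, while on the right the block of Acta2, Tagln and Myl9 stands out.

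Further lists of mural and basement membrane genes were also highest in RA 2 on average. A gene was counted as called where any of its probe sets was. By this count 1.68% of all 18193 genes were called higher and 1.11% lower, and of the 2496 measured genes 12.3% were called higher and 8.09% lower. Of 23 further mural genes with a probe set, 10 were measured, 5 were called higher and 0 lower. Myh11, the smooth muscle myosin heavy chain, had log2 values of 5.35, 6.57, 5.35 and 6.18 in RA 1 to RA 4, and of 5.46, 5.33, 5.42 and 5.52 in control 1 to control 4. As for Acta2, RA 2 and RA 4 lay above all control arrays. Tpm2, a tropomyosin of muscle, was called in 1 of its measured probe sets, at 0.38 on the log2 scale (standard error 0.307). The cell adhesion molecule Mcam was at 0.36 (standard error 0.169), with RA 1 as its highest array, and the transporter Slc6a20a at 0.36 (standard error 0.347). Of 16 basement membrane genes, 6 were measured, and Sparc, a matrix glycoprotein, and Timp3, an inhibitor of metalloproteinases, were called higher (log2 fold changes up to 0.36 and 0.31), and none lower. The collagens Col4a1 and Col4a2, at 0.20 and 0.015, were not called.

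Of 31 further endothelial genes with a probe set, 12 were measured, 3 were called higher, against the 12.3% of all measured genes, and 0 lower. The called genes were the interferon-induced membrane protein Ifitm3 (0.46, standard error 0.249), the sialomucin Podxl (0.28, standard error 0.124) and the adhesion receptor Adgrf5 (0.22, standard error 0.109). Of 17 further transporters, 7 were measured, and 1 was called higher, against the same 12.3%, and 0 lower. It was the zinc exporter Slc30a1 (0.28, standard error 0.0973). None of 31 genes of vessel growth signals was called. Of these, 6 were measured, and the largest changes were 0.14 for Id1, a target of bone morphogenetic protein signaling, and 0.13 for the growth factor Angpt1. limma called none of these genes, which were listed with earlier results of these arrays known.

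Markers of other cell types moved over the same arrays. The mean deviation of the measured mural probe sets from their 8-array mean was -0.25, 0.90, -0.18 and 0.24 in RA 1 to RA 4, and -0.19, -0.23, -0.17 and -0.11 in control 1 to control 4. For the endothelial probe sets it was 0.043, 0.37, 0.0032 and 0.062 in RA 1 to RA 4, and -0.040, -0.10, -0.18 and -0.15 in control 1 to control 4. RA 2 was thus the highest array in both, and RA 4 was second highest in both.

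Meningeal fibroblast markers were also highest in RA 2, by 0.80, and at most 0.18 on any other array. Of 18 such genes, 17 had a probe set, 15 were measured, 7 were called higher, against 12.3% of all measured genes, and 0 lower. Their summed linear signal was 7328 to 19003 in the RA group and 5192 to 12510 in the control group. Choroid plexus markers did not follow RA 2, where they lay 0.89 below their mean, and they were highest in control 3 and RA 4, at 1.496 and 1.297. Of 18 plexus genes with a probe set, all 18 were measured, and 17 were called higher, against the same 12.3%, and 0 lower, with a summed signal of 2565 to 41044 in the RA group and 2359 to 45668 in the control group.

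Blood cell markers lay at 0.055 in RA 2 and were highest in control 2, at 0.32. Oligodendrocyte markers were lowest in RA 2, at -0.78, and hippocampal neuron markers were too, at -0.24. Of 11 measured oligodendrocyte genes 1 was called higher and 3 lower, and of 10 measured hippocampal neuron genes 0 higher and 2 lower, against 12.3% higher and 8.09% lower of all measured genes. Of 9 measured astrocyte genes 4 were called higher and 0 lower, and all astrocyte deviations lay within -0.14 to 0.11. This mean joins opposite patterns. The called probe sets, of Aqp4, Aldh1l1, Slc1a3 and Gja1, were highest in RA 2 and lowest in control 3, as many vascular ones were. Aldoc and Gjb6 were also highest in RA 2, while Slc1a2 and Slc4a4 were highest on other arrays. The measured probe sets of Gfap were lowest in RA 2. Of 9 measured immediate early genes, which respond to cell activity and stress, 8 were called higher and 0 lower. None of 6 measured microglia genes and 5 measured blood cell genes was called. These deviations are taken from the 8-array mean, and the log2 values have no true zero, so no deviation shows that a cell type was absent. The part that meningeal or other tissue has in the height of vascular genes in RA 2 was not tested.

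**Figure D5:**
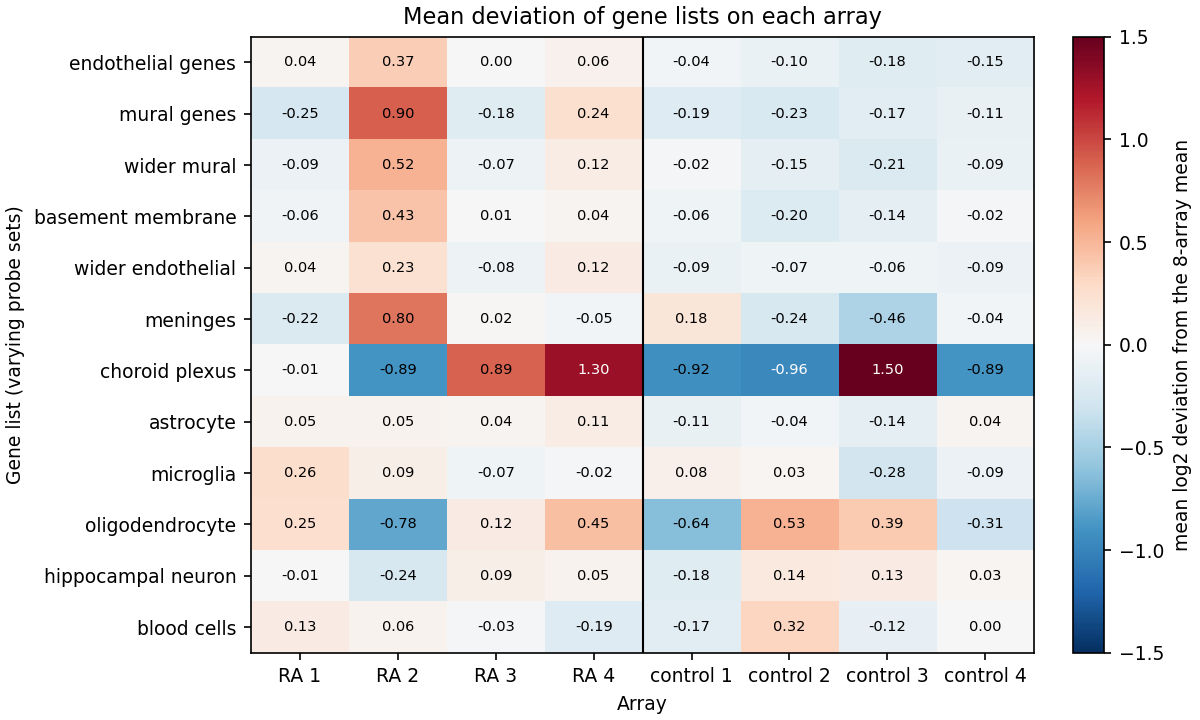
Mean deviation from the 8-array mean (log2) of the measured probe sets of each gene list (rows) on each array (columns, RA arrays left of the line). The endothelial, mural, basement membrane and meningeal lists are highest in RA 2, the choroid plexus list in control 3, and the oligodendrocyte and neuron lists are lowest in RA 2.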

How the data were processed

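Hippocampal RNA was hybridised to Affymetrix GeneChip mouse arrays, and the authors summarised the scanner files with FARMS in R. The deposited log2 values were used as they stand; no source used here says how arrays were scaled to each other. After 64 control probe sets were left out, 45037 remained. Gene names came from the platform table and were brought to the assembly GRCm38.p6: 34741 by gene number, 1 by accession and 203 as listed, while 932 probe sets name several genes and 9160 none. The 2 probe sets that name a vascular gene with another gene were left out.

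The rank product was computed in Python 3.11.15 from 100 shuffles of the values inside each array. limma 3.58.1 in R 4.3.3 supplied standard errors and p-values with Benjamini-Hochberg adjustment over all probe sets. Both were tested on simulated data in which every probe set had the same spread. Most probe sets here are nearly constant, so that test does not show how well the calls hold in these values. The vascular genes and all lists were chosen with earlier results of these data known. Every vascular gene was accounted for, and of the other lists up to 4 called genes with the largest change were named, or 2 measured ones where none was called. Col4a1, Col4a2, Nrp1, Tgfb2 and Slc22a8 were named with their values already seen. Alternatives covered quantile normalization, array medians, filters on low means and on SD, the rank sum, a threshold of 0.01, 1 probe set per gene, the probe set with the highest SD, a replicate block, each array left out, limma with a trend and robust moderation or array weights, and the methods' t-test. Leaving out RA 2 and RA 4 together was chosen after seeing the data. The number of arrays limits the precision of every value.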

Additional observations from a re-analysis of the deposited data

Results flagged for a closer look

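The RA and the control values of each measured vascular probe set make 36 groups of 4. In 2 of these groups, 1 array stood so far from its neighbour, relative to the range of the group, that Dixon's test marked it. Chance alone marks about 1 in 20 groups. Flt1 was at 7.31 in RA 2, with a gap of 0.938 of the range, and the brighter probe set of Vtn was at 9.01 in RA 2, with a gap of 0.856. RA 2 was also the highest array in most other vascular probe sets.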

How the results depend on the processing

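With 1 of the 8 arrays left out, 14 to 960 probe sets in all were called higher and 138 to 317 lower, and 1 to 13 vascular ones were called higher and 0 lower. The median r under the same fits was 0.029 to 0.58 among endothelial genes, 0.40 to 0.86 among mural genes and 0.22 to 0.64 between them. Of the vascular calls, only that of the Tgm2 probe set with the largest change was made in each of the 8 fits. In place of 11 vascular, 400 higher and 260 lower calls, there were 1, 27 and 156 at a threshold of 0.01, 5, 153 and 233 with the filter on low means, 0, 4 and 17 among measured probe sets, 3, 109 and 150 with the rank sum, and 4, 80 and 71 with 1 probe set per gene. limma in each of its forms, the replicate block included, and the methods' t-test after Benjamini-Hochberg adjustment called 0. At an unadjusted p under 0.05 the t-test called 8 vascular probe sets higher, with 1976 higher and 2119 lower in all. These counts, the vascular one included, hold nearly constant probe sets, which say nothing about a difference. The replicate block in the rank product gave 5 vascular, 82 higher and 211 lower calls. The array labels do not say whether the numbers pair the arrays. Deviations of same-numbered arrays correlated at -0.12, -0.33, 0.45 and -0.39, and those of differently numbered arrays at -0.70 to 0.74. These correlations cannot show whether arrays were handled in pairs. Without RA 2 and RA 4 together there were 0 vascular calls higher and 1 lower, that of Tagln, with 4 higher and 226 lower in all. The median r was then -0.014 among endothelial genes, 0.15 among mural genes and -0.10 between them. The log2 fold change turned for Itm2a (with 1 array left out -0.066 to 0.11, the lowest without RA 2, -0.11 without both RA 2 and RA 4, -0.022 with array weights), for Rgs5 (-0.0072 with quantile normalization, -0.0028 with array medians subtracted, -0.054 to 0.047 with 1 array left out, and of these -0.054 without RA 2, -0.0032 without RA 4, -0.018 without control 2 and -0.0099 without control 4, and -0.088 without both) and, without both, for Acta2 (-0.13) and Tagln (-0.28). Groups did not overlap in 1 vascular probe set with quantile normalization, in place of 2. Over all measured probe sets, in the main values, RA arrays lay above in 2.71% and below in 2.87%. Array signal over background is not in the values used, so the depth behind the nearly constant values is unknown.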

Other observations

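Some genes of vessel growth signals were low in RA 2, the highest array of the mural genes. The 4 measured probe sets of Tgfb2, a ligand of the transforming growth factor family, were highest in control 3. So were 2 of the 3 of Nrp1, a co-receptor of vascular endothelial growth factor, and the third was highest in RA 4. In its brightest probe set, Tgfb2 had log2 values of 7.265, 6.996, 7.546 and 7.712 in RA 1 to RA 4, and of 6.987, 7.622, 7.955 and 7.281 in control 1 to control 4. In its brightest probe set, Nrp1 had 8.16, 7.97, 8.36 and 8.47 in RA 1 to RA 4, and 7.98, 8.56, 8.69 and 8.18 in control 1 to control 4. RA 2 and control 1 were the lowest 2 arrays in both. The same held for the oligodendrocyte markers (-0.78 and -0.64) and the hippocampal neuron markers (-0.24 and -0.18). Tgfb2 and Nrp1 are also made by neurons and glia, and neither was called by the rank product. Slc22a8, an organic anion transporter of the barrier, of choroid plexus and of meninges, was not called either and had 6.16, 6.93, 6.24 and 6.18 in RA 1 to RA 4, and 6.43, 5.95, 6.03 and 6.20 in control 1 to control 4. RA 2 was its highest array and control 1 its second highest, as they were for the meningeal list, at 0.80 and 0.18.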
